A study of Drosophila melanogaster with 2 samples.

Results

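The sites described here are bbx peaks that lie inside introns and away from transcription start sites (TSSs). A peak belonged to the set when its summit was over 500 bp from every annotated TSS, lay inside a gene and lay in no exon. Of the 4753 peaks of the conservative set, 402 (8.46%, 95% Wilson interval 7.70 to 9.28) met this rule. The other peaks were 3933 promoter peaks, with a summit within 500 bp of a TSS, 265 intergenic peaks and 153 exon peaks. The authors' other thresholded set gave 608 such intronic peaks, and an irreproducible discovery rate (IDR) of at most 0.001 in place of 0.01 gave 95. The data come from chromatin immunoprecipitation followed by sequencing in whole Drosophila melanogaster embryos aged 0 to 24 h. All embryos were of 1 strain, labelled bbx-GFP, in which a transgene encodes the bbx protein fused to eGFP, and an anti-GFP antibody was used. The 1 group held 2 biological replicates, chromatin was sonicated to 200 to 800 bp, and no untagged sample was analysed here. Whole embryos mix all cell types and stages of that day, so strong binding in few cells and weak binding in many cannot be told apart. A tagged transgene can add copies of the bbx locus itself, so copy number and binding cannot be told apart there.

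The protein encoded by bbx (bobby sox) carries an HMG box, a fold that binds the minor groove of DNA and is shared with the SOX and TCF families. Introns of developmental genes in flies often hold enhancers, the elements that set where and when a gene is transcribed. The first intron of long fly genes is a frequent place for them. Drosophila promoters of broadly expressed genes often carry short shared sequences, among them TATCGATA, the DNA replication-related element (DRE).

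The sequences below are 7 of the strongest intronic sites and 2 further sites that carry motifs searched for here. They are shown because the sequence results turn on them. Each is read 5′ to 3′ on the plus strand of dm6, centred on the summit, over 121 or 201 bases. Capitals mark TATCGATA, GAGAG (the GAGA element), CAGGTAG (the Zelda motif), CACGTG (an E-box), GGTCACACT (motif 1 of fly core promoters) and CACACA on either strand, and neighbouring copies can overlap. All lie in introns of the gene named. The sites in abd-A and upSET stand for CAGGTAG and GGTCACACT, as the strongest with them on the chromosome arms shown. Only 1 intronic window held GGTCACACT.
Asator, chr4:486636-486756: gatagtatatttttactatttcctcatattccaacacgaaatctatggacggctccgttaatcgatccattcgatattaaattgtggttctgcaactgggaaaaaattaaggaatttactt
zf30C, chr2L:9759046-9759166: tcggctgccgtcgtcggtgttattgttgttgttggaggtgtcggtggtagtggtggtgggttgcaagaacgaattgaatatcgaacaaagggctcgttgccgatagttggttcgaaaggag
Ubx, chr3R:16715733-16715933: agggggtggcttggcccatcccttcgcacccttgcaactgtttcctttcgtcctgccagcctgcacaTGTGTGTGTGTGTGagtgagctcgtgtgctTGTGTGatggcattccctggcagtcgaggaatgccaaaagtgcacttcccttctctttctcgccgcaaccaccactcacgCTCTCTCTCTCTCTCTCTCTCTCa
Wdr62, chr2L:1885358-1885478: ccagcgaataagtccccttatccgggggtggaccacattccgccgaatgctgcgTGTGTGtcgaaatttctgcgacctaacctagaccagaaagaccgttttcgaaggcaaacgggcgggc
woc, chr3R:27263442-27263562: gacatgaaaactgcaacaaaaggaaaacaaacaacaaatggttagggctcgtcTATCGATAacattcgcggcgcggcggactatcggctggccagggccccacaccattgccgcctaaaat
CG42709, chr3L:12794654-12794774: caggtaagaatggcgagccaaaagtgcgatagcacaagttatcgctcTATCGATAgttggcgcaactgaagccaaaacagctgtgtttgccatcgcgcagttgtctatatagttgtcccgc
SP1173, chr3L:6701215-6701335: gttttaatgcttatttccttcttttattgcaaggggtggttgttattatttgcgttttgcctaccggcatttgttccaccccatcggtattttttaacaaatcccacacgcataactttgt
abd-A, chr3R:16811917-16812117: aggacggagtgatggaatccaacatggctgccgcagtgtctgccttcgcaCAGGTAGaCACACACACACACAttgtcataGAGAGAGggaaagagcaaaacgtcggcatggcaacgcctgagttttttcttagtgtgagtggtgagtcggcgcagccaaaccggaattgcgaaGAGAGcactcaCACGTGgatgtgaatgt
upSET, chr3L:14002879-14003079: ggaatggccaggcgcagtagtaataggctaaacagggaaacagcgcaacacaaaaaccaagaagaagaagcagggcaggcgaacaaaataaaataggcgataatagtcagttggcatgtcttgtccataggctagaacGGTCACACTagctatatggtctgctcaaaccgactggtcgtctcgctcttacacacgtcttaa

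In this display the sites in woc and CG42709 each hold 1 TATCGATA close to the summit. The Ubx site holds a run of TG repeats near its summit and a run of TC repeats at its edge. The sites in Asator, zf30C and SP1173 hold none of the motifs marked within the bases shown.

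Intronic sites were weaker than promoter sites. The authors' pooled signal, their value for the enrichment of a peak, had a median of 74.8 over the 402 intronic peaks, with quartiles of 64.1 and 96.1. Promoter peaks had a median of 117, intergenic peaks 83.8 and exon peaks 66.3. The files also give 1 signal column for each replicate, called the first and the second here because they are not tied to replicate numbers. In the first column the median was 40.5 for intronic and 68.5 for promoter peaks. In the second it was 35.5 and 54.0. Intronic sites were therefore lower by median in both columns and in the pooled reads. Only 61 intronic peaks exceeded the promoter median.

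**Figure D1:**
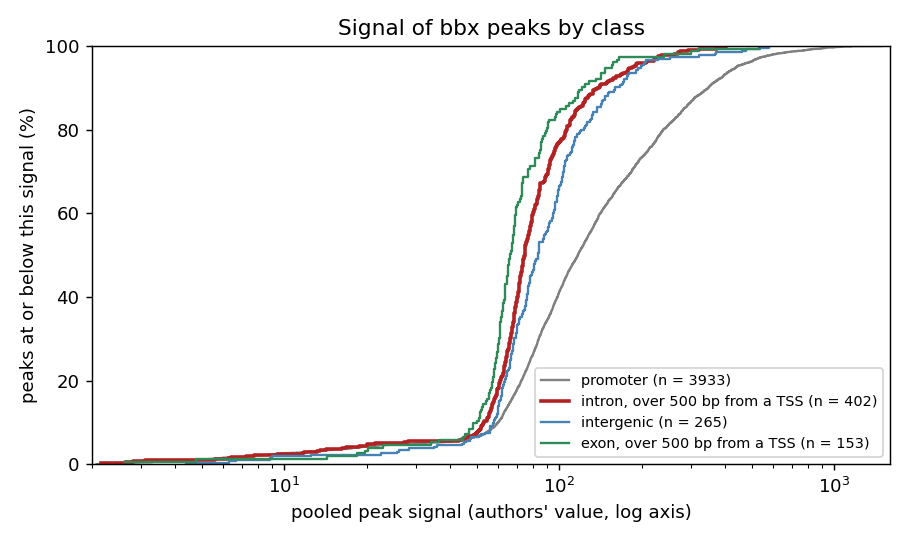
Cumulative share of peaks (in percent) against pooled peak signal (log axis) for the 4 classes of bbx peaks. The curve of the 402 intronic peaks, with a median of 74.8, lies left of that of the 3933 promoter peaks, with a median of 117, and by median between those of exon and intergenic peaks.

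Few intronic sites ranked among the strongest in the genome. When all peaks were cut into 10 equal parts by signal, the strongest held 4 intronic peaks, or 0.84% of 476. The share was 18.5% in the eighth part, where signal ran from 68.3 to 78.3. Both replicate columns were within 2-fold of each other for 372 of the 402 intronic peaks (92.5%). That share was near the 91.6% of all peaks and the 91.1% of promoter peaks. The set was thresholded on reproducibility between the replicates, so some of this agreement is built in. The first column was the higher in 67.4% of intronic peaks and in 76.1% of promoter peaks.

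Weak sites were also found less often in the lists that the authors made from each replicate alone. At least 1 bp of overlap with a replicate 1 peak was seen for 206 intronic peaks (51.2%, 46.4 to 56.1), against 82.8% of promoter peaks. For replicate 2 the count was 149 (37.1%, 32.5 to 41.9), against 69.8%. Both lists held 102 intronic peaks (25.4%) and neither held 149 (37.1%). By signal, the replicate 1 share was 21.8% in the 101 weakest intronic peaks and 92.1% in the 101 strongest. The replicate 2 share was 10.9% and 82.2% in the same peaks. Support by single replicates was thus concentrated in the strong sites, and the replicate lists share reads with the set itself.

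The strongest intronic sites lay in genes of many kinds. The 20 strongest separate sites all overlapped a peak in both replicate lists, 10 were in a first intron, and in 19 the replicate columns were within 2-fold. Asator encodes a kinase of the tau-tubulin kinase family. Its site on chromosome 4 had values of 195 and 201 in the first and second replicate columns and a pooled signal of 405, the highest of the set. It lay in intron 1, 663 bp from the nearest TSS. zf30C encodes a zinc finger protein, and its site in intron 1 had values of 184 and 203 and a pooled signal of 382. The replicate columns nearly matched in both genes.

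Ubx, a Hox gene of the posterior thorax and anterior abdomen, held the next site. Its replicate values were 141 and 238, and the pooled signal was 374. The summit was in intron 2, an intron of 14643 bp, at 4294 bp from the nearest TSS, which belongs to the noncoding asRNA:PS4. Its replicate columns lay further apart than those of Asator and zf30C. The nearest promoter summit was 18702 bp away.

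Tudor-SN encodes a nuclease-fold protein that binds RNA, and its site gave 177 and 143 with a pooled signal of 321. Wdr62, which encodes a WD repeat protein of the spindle poles, gave 132 and 152 with a pooled signal of 292. Roc2, a RING subunit of cullin ubiquitin ligases, gave 134 and 148 with a pooled signal of 275. The columns lay close together in these genes. Adf1, a Myb-domain transcription factor, gave 117 and 153 with a pooled signal of 271. woc encodes a zinc finger protein involved in telomere capping, and its site gave 179 and 90.5 with a pooled signal of 270. CG42709 gave 161 and 97.2 with a pooled signal of 261, at a site that also lies in the overlapping gene Atg1. The columns lay further apart at woc and CG42709 than at Adf1.

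EcR encodes the receptor for the moulting hormone ecdysone, and its strongest site gave 148 and 83.4 with a pooled signal of 235. SP1173 gave 110 and 121 with a pooled signal of 228. The rest of the 20 ranged from 187 to 228. They were in 14-3-3zeta, a phosphoserine-binding adaptor, BRWD3, a bromodomain protein, and msn, a kinase upstream of JNK. They were also in Pp2C1, a phosphatase, CG3726, CG7102, kay, which encodes the fly Fos, kirre, a cell adhesion protein of myoblast fusion, and not, a ubiquitin protease of the SAGA complex. At kay the columns were 134 and 47.1, and this was the 1 site of the 20 where they were not within 2-fold.

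**Figure D2:**
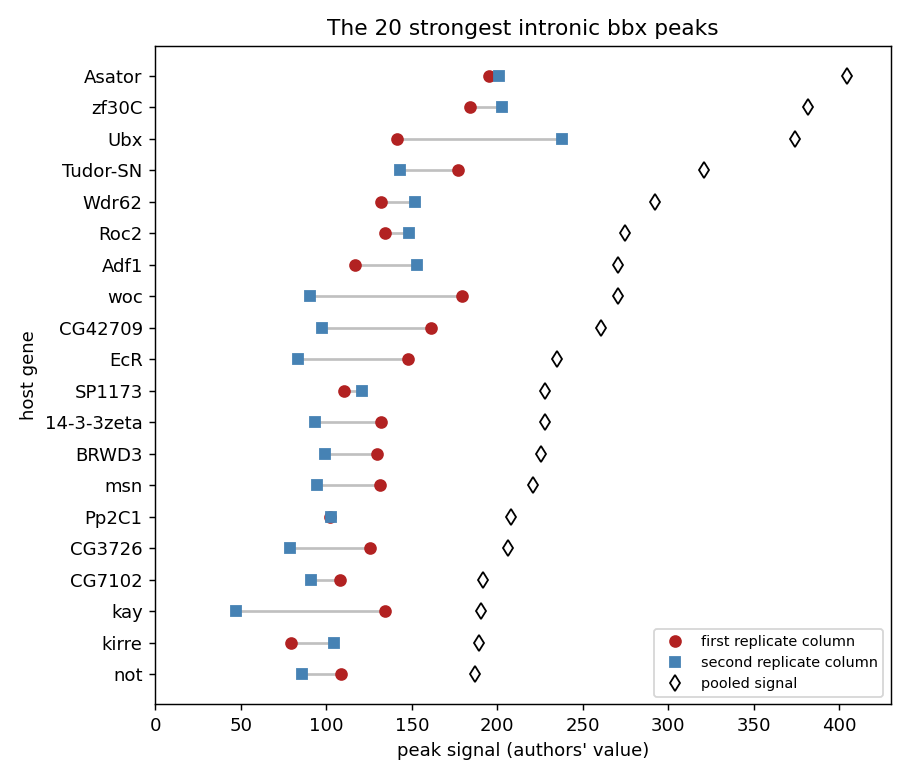
Peak signal (authors' value) of the 20 strongest separate intronic bbx peaks by host gene. Circles and squares are the 2 replicate columns, joined by a line, and diamonds the pooled signal, which was above both columns at each site and ran from 187 for not to 405 for Asator.

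At the low end, pooled signal did not follow the replicate columns. The lowest values were 2.16 in sima, which encodes the fly hypoxia-inducible factor alpha, 2.64 in gzl and 2.81 in Dmtn. The sima peak had 45.2 and 38.1 in the replicate columns. The gzl peak had 30.2 and 37.3, and the Dmtn peak 37.2 and 25.4. Each of these peaks overlapped a stronger intronic peak and carried the same replicate values as that peak. Of the 22 intronic peaks with a pooled signal below 30, 19 were such weaker neighbours. Merging overlapping intronic peaks gave 381 separate regions, of which 21 held more than 1 summit.

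First introns held as many sites as all later introns together. In the longest transcript of the host with the summit in an intron, 201 of 402 peaks (95% Wilson interval 45.1% to 54.9%) were in the first intron, 120 in the second and 32 in the third. Sequence that could hold a member, meaning bases inside a gene, in no exon and over 500 bp from every TSS, came to 53.8 Mb. First introns made up 29.3% of it. The density was 12.7 peaks per Mb (95% exact Poisson interval 11.0 to 14.6) in first introns and 5.29 (4.58 to 6.07) in later introns. These intervals did not overlap. Median pooled signal was 73.9 in first and 75.9 in later introns, a small difference, and the replicate columns gave 40.0 and 34.4 against 42.2 and 37.0. Counting an intron as first where any transcript of the host makes it so gave 266 peaks (66.2%), and requiring it of every transcript gave 187 (46.5%).

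Sites were sparser farther from a TSS in both kinds of intron. It was 26.9 peaks per Mb (22.3 to 32.2) at 500 to 1000 bp and 14.4 (11.7 to 17.4) at 1000 to 2000 bp. It was 8.44 (6.94 to 10.2) at 2000 to 5000 bp, 3.96 (2.88 to 5.31) at 5000 to 10000 bp and 1.49 (0.985 to 2.17) beyond. Each step lay outside the interval of the step before it. Later introns hold more distant sequence, since 15.4 of their 38.0 Mb lies over 10000 bp from a TSS, against 2.70 of 15.8 Mb in first introns.

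At matched distance the gap between first and later introns was narrower. At 500 to 1000 bp the density was 31.9 (24.95 to 40.2) in first and 21.8 (16.0 to 29.0) in later introns. At 1000 to 2000 bp it was 18.4 (13.95 to 23.9) and 11.2 (8.12 to 15). At 2000 to 5000 bp it was 11.4 (8.57 to 15) and 6.80 (5.17 to 8.80). First introns were denser in each of these bins, with overlapping intervals. Farther out the values were 4.22 and 3.86, then 2.22 and 1.37, and could not be told apart at these counts. The median distance of the 402 summits to a TSS was 1695 bp and the largest 41355 bp.

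**Figure D3:**
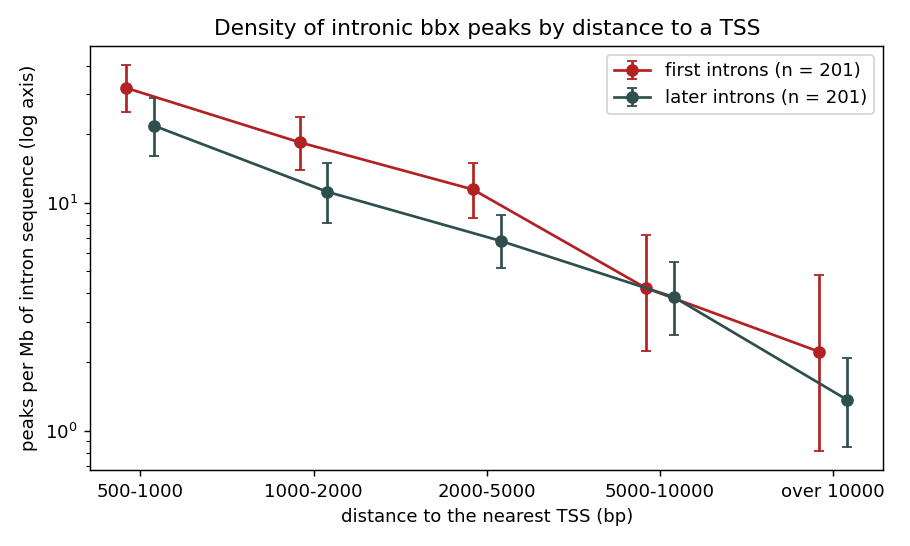
Intronic bbx peaks per Mb of intron sequence (log axis) against distance to the nearest TSS (in bp), for first and later introns. Points are rates and bars 95% exact Poisson intervals, which cover counting error only. Density went from 31.9 to 2.22 in first and from 21.8 to 1.37 in later introns.

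Signal changed little along the same axis. Median pooled signal was 78.1 at 500 to 1000 bp, 73.9 at 1000 to 2000 bp, 73.5 at 2000 to 5000 bp, 79.0 at 5000 to 10000 bp and 68.5 beyond. Sites far from a TSS were thus fewer per Mb, with medians in a narrow range.

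The 500 bp limit cut through a continuous run of peaks. Just inside it lay peaks in tun at 499 bp (42.8 and 41.7 in the replicate columns, pooled signal 74.6), Hipk at 496 bp (44.1 and 53.1, pooled 92.6) and bdg at 495 bp (39.9 and 28.9, pooled 61.1). The nearest members were in chn at 508 bp (33.0 and 34.3, pooled 11.8), CG3277 at 510 bp (50.9 and 61.1, pooled 120) and pros at 516 bp (38.4 and 37.5, pooled 78.4). Their replicate values covered a similar range on either side. Of all promoter peaks, 484 had their summit inside a gene and in no exon, with a median pooled signal of 96.9.

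Many intronic sites lay near promoters that bbx also occupied. A promoter summit lay within 1000 bp of 69 intronic summits (17.2%, 13.8 to 21.2), against 1.43% of the eligible intron bases. Within 5000 bp the shares were 53.2% (48.3 to 58.1) and 12.9%. The median distance from an intronic summit to the nearest promoter summit was 4077 bp. Sonicated fragments reached 800 bp, and the part that reads from a neighbouring promoter peak play in the closest intronic peaks was not tested.

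The 402 peaks fell in 312 host genes, 305 of them protein-coding. These were 3.27% of the 9549 genes with eligible intron sequence. Hosts were long genes, with a median length of 20.1 kb against 3.46 kb over all those genes, and a median of 11.95 kb of eligible intron sequence against 0.454 kb. A longer gene holds more sequence in which a member can fall, so the rule itself favours long hosts. Per Mb, density was 10.7 peaks in genes with up to 1 kb of eligible sequence, 22.8 at 1 to 5 kb and 2.98 over 50 kb. In 295 of 402 cases (73.4%) the nearest TSS belonged to the host, so an intronic summit can also be close to the TSS of a nested or neighbouring gene.

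Most hosts also carried bbx at their own start. A summit lay within 500 bp of an own TSS in 218 of 312 hosts (69.9%, 64.6 to 74.7), against 3384 of the 9549 genes (35.4%, 34.5 to 36.4). Hosts had a median of 2 annotated TSSs, against 1 over those genes, and so more places for such a summit. The part of TSS number in this difference was not tested. Per Mb of intron sequence, genes with an occupied TSS held 15 intronic peaks (13.3 to 16.8) and genes without one held 3.07 (2.50 to 3.71). The same order was seen in each class of intron length. In genes with over 50 kb of eligible sequence the densities were 6.72 and 1.10, and in those with 1 to 5 kb they were 43.8 and 10.2. The strongest intronic peak exceeded the strongest own TSS peak in 46 of the 218 hosts, and its median was 68.2% of the TSS signal.

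**Figure D4:**
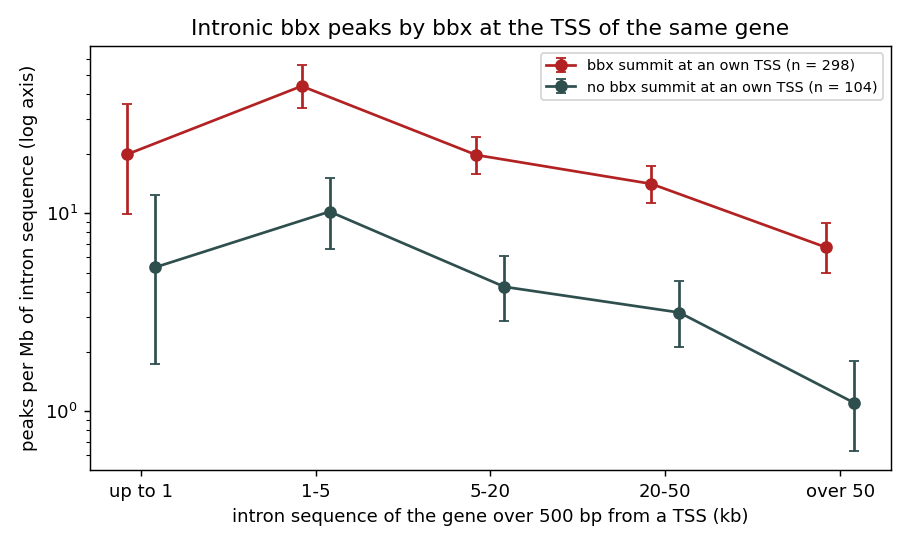
Intronic bbx peaks per Mb of intron sequence (log axis) by the amount of eligible intron sequence in the gene (in kb), for genes with and without a bbx summit within 500 bp of an own TSS. Points are rates and bars 95% exact Poisson intervals for counting error. Genes with an occupied TSS lay above the others in each of the 5 length classes, from 43.8 against 10.2 at 1 to 5 kb to 6.72 against 1.10 over 50 kb.

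Separate peaks recurred within single genes. At least 2 separate intronic peaks were found in 63 of the 312 hosts (20.2%, 16.1 to 25), at least 3 in 18 and at least 4 in 6. The hosts themselves were 3.27% of the 9549 genes with eligible intron sequence. A summit inside overlapping genes counts for each of them, so some of these genes share the same summits. HmgD and HmgZ, Mi-2 and Su(Tpl), and lncRNA:iab8 and MSAmiP are such pairs, the last of them both among the 6. The list of replicate 2 alone gave 21 genes with at least 2, that of replicate 1 alone gave 53 and the authors' other thresholded set gave 102. mam encodes Mastermind, the coactivator of Notch target genes, and held 7, the most of any gene. They spanned 29.4 kb of a 69.2 kb gene, in introns 2 and 3, with pooled signals from 52.04 to 177. The strongest had 132 and 44.2 in the replicate columns, so that site was far higher in one column than in the other. The next had 89.1 and 59.98. In mam, 4 of the 7 sites overlapped a replicate 1 peak and 4 a replicate 2 peak, and the peak at the TSS had a signal of 378.

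Tlk encodes the Tousled-like kinase of chromatin assembly and held 6 sites, all in 1 intron of 60007 bp. Their pooled signals ran from 67.8 to 124, against 92.2 at the TSS of the gene. The strongest gave 61.6 and 64.7 in the replicate columns, and the site with the widest gap gave 91.8 and 25.4. All 6 overlapped a replicate 1 peak and 2 a replicate 2 peak. The sites formed a group of 4 and a pair, separated by 33.6 kb.

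shn encodes Schnurri, a zinc finger protein that acts with the Smad proteins of the Dpp pathway, and held 5 sites with pooled signals from 59.2 to 106. The strongest gave 46.6 and 63.4 in the replicate columns, and 3 of the 5 overlapped a peak in neither replicate list. EcR held 4 sites, all in 1 intron of 56758 bp and spread over 48.8 kb. Its strongest site, at 235, stood apart from the rest, which ran from 55.9 to 84.2. The noncoding lncRNA:iab8 of the bithorax complex held 5 sites with pooled signals from 70.6 to 157. MSAmiP held 4, which are the same summits because the genes overlap.

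Genes with 3 separate sites came next by summed signal as Dscam1, psq, SNF4Agamma, bun, siz, sick, CG5953 and Imp. Dscam1, a highly spliced receptor of neuron identity, held its sites within 3.20 kb at 62.7, 84.0 and 175. psq, a BTB protein that binds GAGA repeats, had its strongest site at 156 and no summit at its own TSS. sick spread its sites over 98.0 kb, the widest span of the 18 genes, and bun, a TSC22-domain transcription factor, had a TSS peak of 801 beside intronic peaks of at most 117.

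**Figure D5:**
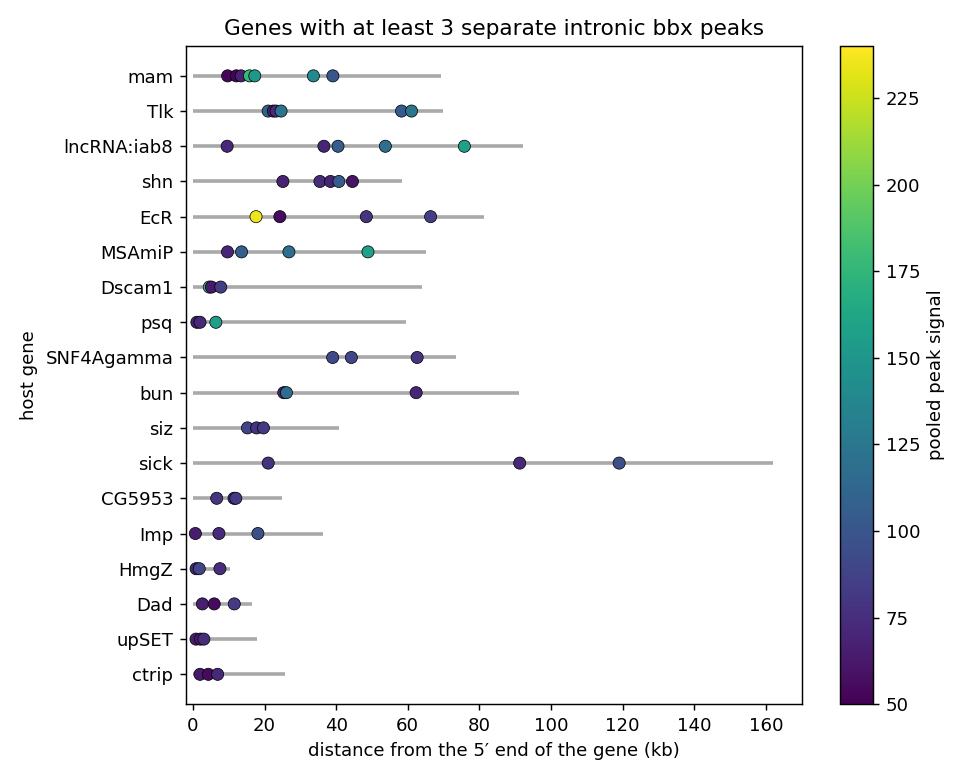
Positions of separate intronic bbx peaks along the 18 genes with at least 3, as distance from the 5′ end of the gene (in kb). Grey lines are gene lengths and colour is pooled peak signal. mam shows 7 peaks and Tlk 6, and the highest signal is 235 in EcR. lncRNA:iab8 and MSAmiP overlap and share 4 summits.

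In 16 of 18 gene lists the share of hosts was above the 3.27% over all genes. Genes of 17 of the lists also had more eligible intron sequence by median than all genes, so density per Mb is given beside the counts. Density itself also differed with gene size. It was 22.8 peaks per Mb in genes with 1 to 5 kb of eligible sequence and 2.98 in those over 50 kb. The lists were not matched for this, so list and gene size cannot be told apart in these comparisons. The interval of the list density lay above the interval of all genes in 6 lists. It included the rate of all genes in 11 lists and lay below that rate in 1. Neuroblast and neural regulators had 7 hosts of 19 eligible genes, at 44.4 peaks per Mb (22.2 to 79.4), against 7.47 peaks per Mb (6.76 to 8.24) over all genes. They included elav, the neuronal RNA-binding protein, with a strongest pooled signal of 104, Imp at 95.7, brat, a translational repressor in neural stem cell daughters, at 92.3 and pros, the homeodomain factor of ganglion mother cells, at 78.4. elav had 65.6 and 26.8 in the replicate columns at its strongest site, and no summit at its own TSS. Both elav sites also lie in the overlapping genes arg and lncRNA:enrr. In Imp the columns gave 60.1 and 45.4, closer together than in elav.

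HMG-box genes had 5 hosts of 14, at 46.0 peaks per Mb (18.5 to 94.7). The sites counted for HmgD and HmgZ, which encode chromosomal HMG proteins, are partly the same because these genes overlap, and their strongest pooled signal was 89.4. Sox102F reached 82.9 (51.8 and 30.3 in the replicate columns) and cic, the Capicua repressor, 81.8 (42.1 and 40.6). The bbx gene held 1 site, of 62.6 pooled and 46.2 and 27.01 in the replicate columns, in an intron of the overlapping gene waw as well, and in neither replicate list. At its TSS bbx had a summit with a signal of 99.3. By pooled signal it was among the 101 weakest sites of the set.

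Chromatin regulators had 5 hosts of 38 and 55.0 peaks per Mb (22.1 to 113), on little intron sequence. Mi-2, a nucleosome remodeller, had the strongest site at 109, followed by Trl, the GAGA factor, at 64.1, kis at 59.4 and CtBP, a corepressor, at 57.8. Both sites counted for Mi-2 also lie in the first intron of the overlapping gene Su(Tpl). The Hedgehog and Dpp list had 3 hosts of 22 and 47.9 peaks per Mb (23.0 to 88.1), all in genes of Dpp signalling. These were shn, Mad, the Smad of the pathway, at 88.3 and Dad, its inhibitory Smad, at 83.2. The Notch list had 2 hosts of 17, mam and numb, at 33.2 peaks per Mb (14.3 to 65.4), with 7 of the 8 sites in mam. numb, an inhibitor of Notch, reached 45.7, and the other thresholded set gave 4 hosts. The density of these lists rested on few genes.

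Nuclear receptors and ecdysone response genes had 5 hosts of 24 and 17.9 peaks per Mb (9.23 to 31.2). Beside EcR these were Eip75B at 111, Eip74EF at 110, Hr4 at 95.2 and Eip78C, and the other thresholded set gave 9 hosts. BTB zinc finger and other fate factors had 7 hosts of 26 and 11.5 peaks per Mb (5.25 to 21.8), led by mod(mdg4), an insulator protein, at 177, psq at 156, ct, a homeodomain factor, at 93.2 and pros, and the other thresholded set gave 12 hosts. The interval of the first of these lists lay above the rate of all genes, and that of the second included it.

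The list of homeotic, gap and segmentation genes had 5 hosts of 27, all of them Hox genes, at 10.2 peaks per Mb (3.31 to 23.8). After Ubx came abd-A at 121 (66.2 and 53.0 in the replicate columns), pb at 98.1, Abd-B at 96.7 and Antp. Each of these Hox genes held 1 site. pb and Antp had no summit at an own TSS, and the Antp site also lies in an intron of the overlapping gene CG46458.

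Further lists held hosts at 6.38 to 16.5 peaks per Mb, with intervals that included the rate of all genes. The EGFR, FGF and Ras pathway had 5 hosts of 27 (8 in the other thresholded set), led by RasGAP1 at 97.9, ru, a rhomboid protease that releases EGFR ligands, at 89.8, aop at 66.9 and sty, an inhibitor of the pathway, at 65.7. The ru site also lies in the overlapping gene Ptp61F. Cytoskeleton and cell polarity genes had 6 of 34, led by Dhc64C, the dynein heavy chain, at 103, baz at 90.6, RhoGEF2 at 88.7 and shot at 74.7. The Hippo, insulin and TOR list had 2 of 26, kibra at 69.5 and wts, the Warts kinase, at 58.8. The Wnt list had 3 of 25, with the receptor fz2 at 114, nkd at 71.6 and dlp at 66.0, against 7 hosts in the other thresholded set. Muscle and mesoderm genes had 4 of 29, with zfh2 at 73.9, Zasp66 at 71.1, Mef2 at 56.4 and kon at 55.3. RNA-binding proteins had 6 of 34, and beside elav, Imp and brat they included heph at 93.5.

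Axon guidance and ion channel genes had the lowest densities among lists with a host. Their genes held medians of 32.5 and 27.4 kb of eligible intron sequence, against 0.454 kb over all genes. Over all genes the density was 7.48 peaks per Mb at 20 to 50 kb of such sequence and 2.98 over 50 kb. The part of gene size in the densities of these lists was not tested. Axon guidance and cell adhesion genes had 9 hosts of 55, led by kirre at 189, Dscam1, sli at 85.2 and sdk at 77.3, but 4.51 peaks per Mb (2.33 to 7.88). Ion channel and synapse genes had 3 of 42, Rim at 140, KCNQ at 91.2 and GluClalpha at 68.2, at 2.68 peaks per Mb (0.731 to 6.87). None of these hosts had a summit at its own TSS, and only 7 of the 42 genes (16.7%) had one. No circadian clock gene (0 of 15) and no cytoplasmic ribosomal protein gene (0 of 18) hosted a site, while the authors' other thresholded set gave 3 clock hosts. Those lists hold little eligible intron sequence, 0.143 Mb and 0.0036 Mb, and the exact interval of a count of 0 reached 25.8 per Mb for the clock genes.

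Sequence around intronic summits differed from that around promoter summits. Within 100 bp of the summit, on either strand, TATCGATA was present in 10 of 402 intronic windows (2.49%, 1.36 to 4.52), in 20.3% of promoter windows (19.1 to 21.6) and in 0.441% of 267145 windows tiled over eligible intron sequence. In windows at intergenic summits the share of TATCGATA was 8.30%. Its median distance from the intronic summits that had it was 11.5 bp. GGTCACACT was present in 1 intronic window (0.249%, 0.0439 to 1.40), in 6.71% of promoter windows and in 0.755% of intergenic windows. Its share of tiled intron windows was 0.0913%, which the interval of the intronic share included.

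Most of the few intronic sites with TATCGATA were among the strongest. The 10 sites had a median pooled signal of 186, against 74.4 for the others. Those in Set and Dmtn, at 70.1 and 63.2, lay below the median of 74.8 over all intronic peaks. The replicate columns gave medians of 95.4 and 82.1 with the motif and 40.2 and 35.2 without it. The motif was in 7 of the 101 strongest sites (6.93%, 3.40 to 13.6) and in 1 of the 101 weakest. Of the 20 strongest sites, 5 held it, in Tudor-SN, woc, CG42709, CG7102 and kirre. Beside these, it was found in Stt3A, Ncoa6, Imp, Set and Dmtn, and 5 of the 10 sites were in a first intron. Among the 95 intronic sites with an IDR of at most 0.001, the share with TATCGATA was 8.42%. Among the 212 intronic sites of replicate 2 alone it was 5.66%, and among the 369 of replicate 1 alone 2.98%.

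Repeats of GA and CA were more frequent at intronic than at promoter summits. GAGAG was present in 43.8% of intronic windows (39.0 to 48.7), 24.6% of promoter windows and 21.4% of tiled intron windows. CACACA was present in 35.3% (30.8 to 40.1), 17.2% and 17.2%. At intergenic summits GAGAG was in 35.5% of windows and CACACA in 21.5%, between the intronic and promoter shares. Among all 6-base sequences, AGAGAG had the largest difference of shares, with 26.9% of intronic and 7.94% of tiled intron windows. It was followed by ACACAC with 32.6% and 14%. Intergenic windows held AGAGAG in 18.1% and ACACAC in 17.4% of cases. Median pooled signal was 72.6 with GAGAG and 75.6 without it, so sites with and without the repeat were of similar strength by median.

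CGATA, the core of TATCGATA, was present in 28.1% of intronic windows, 61.6% of promoter windows and 20.4% of tiled intron windows. CAGGTAG was present in 2.74% of intronic windows (1.53 to 4.83) and 0.930% of tiled windows, and CACGTG in 5.22% (3.44 to 7.85) and 2.23%. CAGCTG, another E-box, was present in 10.9% and 7.20%. The SOX-type core ACAATG was present in 9.20% of intronic windows (6.75 to 12.4), below the 12.7% of tiled windows, and the TCF-type core ACAAAG in 14.2% and 15.2%. AACAAAG was present in 7.46% and 6.26%, GATAAG in 9.20% and 8.57%, TCAGTT in 12.2% and 12.7%, and TATAAA in 14.7% and 24.1%. Median GC content was 47.8% in intronic windows, 42.3% in promoter windows and 40.3% in tiled intron windows, and the part of base composition in the motif shares was not tested.

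A summit lay in an annotated transposable element in 8 cases (1.99%, 1.01 to 3.88), against 7.02% of eligible bases. It lay in a base masked as repeat in 62 cases (15.4%, 12.2 to 19.3), between the 23.4% of eligible bases and the 7.83% of promoter summits. By chromosome, the density ran from 5.68 peaks per Mb (4.32 to 7.35) on X to 9.62 (7.73 to 11.8) on 2R. Y held 0 intronic peaks and 0 peaks of any class.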

How the data were processed

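Both samples were processed by the authors to peak lists on the dm6 assembly, called against a control alignment, per the deposited text files. The aligner and peak caller, not given in the sources used here, could change which weak peaks are listed. The signal the authors deposited measures how enriched a peak is, either over both replicates pooled or per replicate, on a scale that the sources do not name. The deposited score is the authors' rescaled irreproducible discovery rate (IDR), and their deposited −log10 values are those of a q-value and of the IDR. The conservative thresholded set, with an IDR of at most 0.01, was the set analysed. No read totals were given, so depth per sample is unknown.

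Genes, exons and TSSs came from Ensembl release 115, without transposable element genes, and sequences from the release 6 genome, with the same coordinates as dm6. A host was any gene holding the summit. Introns were numbered in the longest transcript of the primary host, taken as protein-coding first and then as the shortest gene. Motifs were searched on both strands within 100 bp of the summit, beside adjoining 201 bp windows tiled over all eligible intron sequence. Overlapping peaks are counted as separate members unless called separate regions, so their windows can share bases.

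With 1 group, no test between groups was made. Shares carry 95% Wilson intervals and rates 95% exact Poisson intervals, and both cover counting error only. Peaks that share a gene are not independent. Alternatives were the other thresholded set, a stricter IDR, other TSS distances, merged peaks, each replicate alone, protein-coding genes only, repeats left out, other motif windows, other definitions of a first intron and a reciprocal overlap. Positions and intron numbers were checked against a direct search.

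The members, gene lists, motifs and naming rule were chosen with earlier results of these data known. The rule named the hosts of the 20 strongest sites, the 6 genes with at least 4 separate sites and 8 with 3, up to 4 hosts of each list, the 3 weakest peaks, bbx and the 3 peaks on either side of the distance limit. The 10 hosts with TATCGATA were named after their values were seen, as were the overlapping genes waw, Su(Tpl), CG46458, arg, lncRNA:enrr, Ptp61F and Atg1. Sequences of further strong sites are not reported here. Symbols of 8 listed genes were matched through RefSeq synonyms. Scripts ran under Python 3.11.15. They used pandas 2.3.3 and NumPy 2.4.6 for tables, SciPy 1.17.1 for intervals and Matplotlib 3.10.9 for figures.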

Additional observations from a re-analysis of the deposited data

How the results depend on the processing

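Of 95 values recomputed under alternatives, 66 stayed within 1.5 times (counts), within the 95% interval (shares) or within the spread of the replicate columns (signal), and 29 moved. Only the signal difference from promoter peaks could change sign, and it stayed negative. The cause of each move was not tested, beyond what the alternative's construction gives.

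The other thresholded set gave 608 intronic peaks, a median signal of 67.3, a difference from promoter peaks of -34.8, 102 genes with several separate peaks, 77.2% of hosts with an occupied TSS and 29.1% of peaks in the replicate 2 list. An IDR of at most 0.001, which keeps only the most reproducible peaks, gave 95 peaks, 40.0% in a first intron, a median signal of 128, 87 host genes, 7 of them with several separate peaks, and 51.7% with an occupied TSS. It also gave 94.7% and 89.5% of peaks in the replicate 1 and replicate 2 lists and 8.42% with TATCGATA. A TSS distance of 1000 bp gave 63.8% of hosts with an occupied TSS, and protein-coding genes alone gave 45.02% of peaks in the replicate 2 list. The share of occupied TSSs over all genes, 35.4% in the main set, was not recomputed under any alternative. Shares of hosts with an occupied TSS under alternatives therefore have no matching background. A first intron of any transcript took 66.2% of peaks, without a matching share of intron sequence. A reciprocal overlap of 50% left 46.0% in the replicate 1 list.

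The lists of single replicates ranged from 212 to 369 intronic peaks, from 185 to 297 hosts and from 21 to 53 genes with several separate peaks. Median signal ranged from 45.6 to 46.2, and the difference from promoter peaks from -23.6 to -21.5, on the scale of 1 replicate. The share of hosts with an occupied TSS ranged from 50.8% to 71.0%, the share with TATCGATA from 2.98% to 5.66% and the first intron share from 47.7% to 49.1%. Of the intronic peaks of replicate 1, 28.7% overlapped a replicate 2 peak. Of 36 recomputed host counts of gene lists, 6 moved by over 1.5 times, all under the other thresholded set: 12 for BTB factors, 9 for nuclear receptors, 4 for Notch, 7 for Wnt, 8 for EGFR, FGF and Ras and 3 for clock genes. Among members over 2000 bp from every TSS, an alternative chosen after seeing the data, 67.3% of hosts had an occupied TSS. No paired analysis was possible because there is 1 group.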
